A study of Mus musculus with 6 samples.

Results

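Drugs, steroids, bile acids and bilirubin are made water-soluble in the liver by conjugation. Most of the 40 genes described here carry out or feed its 2 main reactions, glucuronidation and sulfation, and all 40 were taken by symbol from a table of 17441 genes. They comprise 20 genes of UDP-glucuronosyltransferases (UGTs; families Ugt1, Ugt2 and Ugt3), 16 genes of cytosolic sulfotransferases (SULTs; families Sult1 to Sult6) and 4 genes that supply their cofactors. Measured by RNA-seq, the livers were 3 labelled wild type (WT) and 3 labelled as an inducible whole-body knockout of Nek7 (iKO). All 6 livers, the WT livers included, were taken 10 days after a tamoxifen injection. NEK7 is a kinase of mitosis and of the NLRP3 inflammasome. The labels name no promoter for the inducible recombinase, and they give no sex, age, strain or hour of collection. Acetaminophen-induced injury is the subject of the series title, while tamoxifen is the one agent named for these 6 livers.

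UGTs sit in the membrane of the endoplasmic reticulum, where those of the Ugt1 and Ugt2 families transfer glucuronic acid from UDP-glucuronic acid to their substrates and those of the Ugt3 family use other sugar donors. That donor is made from UDP-glucose, the product of the pyrophosphorylase encoded by Ugp2, by the dehydrogenase encoded by Ugdh. SULTs are cytosolic and transfer sulfate from PAPS, which the synthases encoded by Papss1 and Papss2 make from ATP and sulfate. In mice acetaminophen is cleared largely as a glucuronide and a sulfate, and only the remainder is oxidised to the toxic product that glutathione takes up. Several SULT and UGT genes are known to differ strongly between male and female mouse liver.

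Before the results, 3 facts about the libraries bear on every comparison. Nek7 itself was read at 55.5, 40.5 and 36.4 TMM-normalised counts per 1e6 reads (CPM) in WT 1 to 3 and at 50.2, 32.8 and 31.0 CPM in iKO 1 to 3 (log2 fold change -0.22, SE 0.23, edgeR adjusted p = 0.541). The gene total does not set the groups apart, so the second group is called "labelled iKO". The Y-linked genes Ddx3y and Kdm5d together gave 1113 expected counts in WT 1 and 573 to 883 in the iKO-labelled libraries, but 0 in WT 2 and 0 in WT 3. Cyp2b13, known as female-biased in mouse liver, reached 269 and 293 CPM in these WT libraries but only 0 to 0.581 CPM in the other 4 libraries. WT 2 and WT 3 are therefore referred to as the WT libraries without Y-linked reads, and the group comparison mixes this feature with the knockout label. Library totals ran from 18139507 to 19911983 expected counts.

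The Ugt1a genes are 1 locus on mouse chromosome 1 in which each gene has its own first exon, which sets the substrate range, and all share the exons that bind UDP-glucuronic acid. The last exon is annotated with more than 1 end, at 88220002 in Ugt1a7c and at 88218997 in Ugt1a1. Reads that lie wholly in the shared part cannot be assigned to 1 gene by sequence. The stretches shown cross the coding junction from the first exon, in lower case, into the shared second exon, in capitals (GENCODE M21, GRCm38, chr1:88215044-88215175, plus strand, for that exon). They are given because they show where the shared part begins.
Ugt1a1: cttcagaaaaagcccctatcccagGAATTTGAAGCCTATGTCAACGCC
Ugt1a5: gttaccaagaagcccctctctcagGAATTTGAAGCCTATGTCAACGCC
Ugt1a6a: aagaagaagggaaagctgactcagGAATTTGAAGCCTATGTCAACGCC
Ugt1a6b: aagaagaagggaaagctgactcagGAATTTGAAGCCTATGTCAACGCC
Ugt1a9: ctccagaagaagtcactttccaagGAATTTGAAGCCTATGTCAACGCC
In the 24 bases before the junction Ugt1a6a and Ugt1a6b differed from Ugt1a1 at 14 positions, Ugt1a5 at 7 and Ugt1a9 at 6, and after it none differed. Of all 50-base words in the longest coding transcript of each gene, 58.2% for Ugt1a1, 80.7% for Ugt1a6b and 100% for Ugt1a6a also occur in another gene. The same share was 41.7% for Ugt2b5, 62.1% for Sult2a2 and 33.2% for Sult2a1, and 0% for Ugt2b1, Sult2a7, Sult2a8, Papss2 and Ugp2. The 100% of Ugt1a6a is with transcripts that GENCODE M21 names Ugt1a7c. The build listed for the counts is mm9, so these shares need not hold for how the reads were assigned. Expected counts of 17 of the 40 members were not whole in any library (tolerance 0.001), as happens when reads are divided between genes. Papss2, at 0% shared words, was among the 17, so the word share does not mark every gene with such counts. Levels of single Ugt1a genes are less certain than their sum.

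In TPM, a unit of transcript share scaled by transcript length in which genes can be compared and added, UGT genes, Ugt3 included, outweighed SULT genes in every liver. The 20 UGT genes summed to 3047, 2515 and 2330 TPM in WT 1 to 3 and to 1823, 2469 and 2077 TPM in iKO 1 to 3. The 16 SULT genes summed to 901, 2061 and 1171 TPM in WT livers and to 605, 1074 and 1223 TPM in the iKO-labelled livers. The groups overlapped in both sums. UGT over SULT was 3.38, 1.22 and 1.99 in WT livers and 3.01, 2.30 and 1.70 in the iKO-labelled libraries, so the spread within WT covered all 3 livers labelled iKO. On the log2 scale the mean of this ratio was 0.17 higher in the group labelled iKO, against SDs of up to 0.74 within a group.

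**Figure D1:**
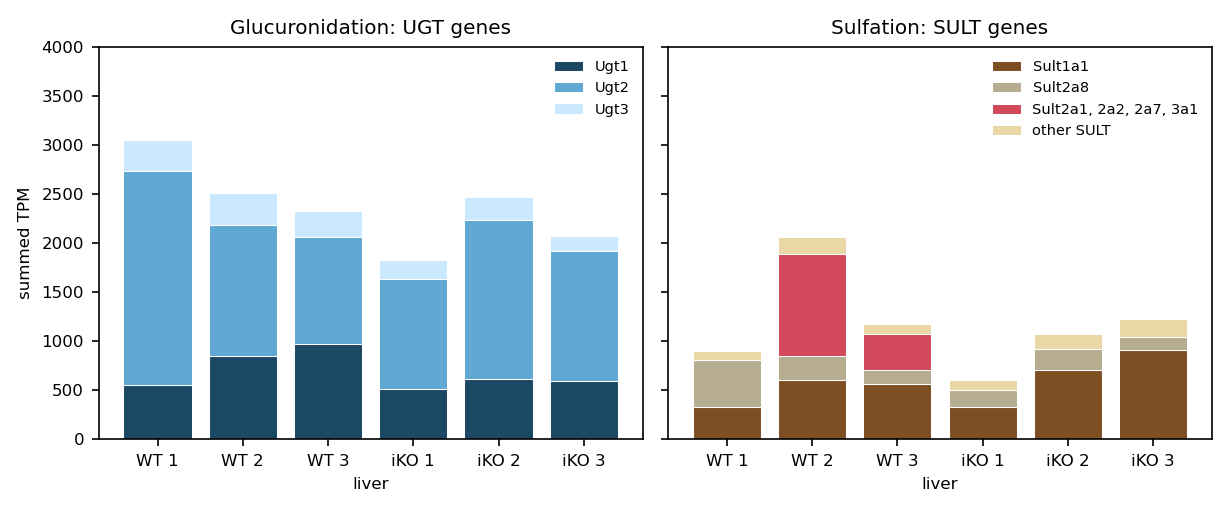
Summed TPM (vertical axis, from 0) of the UGT genes (left) and the SULT genes (right) in each liver, with colours for families or genes. The UGT sums include the Ugt3 genes, whose enzymes use other sugar donors. UGT sums run from 1823 to 3047 and SULT sums from 605 to 2061, and the red block of Sult2a1, Sult2a2, Sult2a7 and Sult3a1 is visible in WT 2 and WT 3 only.

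The makeup of each family also varied between livers. Ugt2 genes gave 71.5%, 53.0% and 46.9% of UGT TPM in WT 1 to 3 and 62.0%, 65.5% and 63.8% in iKO 1 to 3. Sult1a1, the phenol sulfotransferase, gave 36.5%, 29.0% and 47.9% of SULT TPM in WT livers and 54.3%, 65.3% and 74.1% in the iKO-labelled livers, and these shares did not overlap. They did overlap once Sult2a1, Sult2a2, Sult2a7 and Sult3a1 were left out of the SULT sum, with Sult1a1 at 36.7%, 58.5% and 69.5% in WT livers and 54.6%, 65.8% and 74.2% in the iKO-labelled livers. These 4 genes, grouped after their values were seen, gave 0.483% of SULT TPM in WT 1, 50.4% in WT 2, 31.1% in WT 3 and 0.184% to 0.620% in the iKO-labelled libraries. Without these 4 genes the SULT sum was 896, 1022 and 806 TPM in WT livers and 602, 1068 and 1220 TPM in the iKO-labelled livers. UGT over SULT without them was 3.4, 2.46 and 2.89 in WT livers and 3.03, 2.31 and 1.70 in the iKO-labelled livers, which still overlapped.

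Of the 40 members, 31 passed the filter on low counts, 18 UGT, 9 SULT and all 4 cofactor genes. None of the 31 passed edgeR's quasi-likelihood test at adjusted p 0.05 (0 of 31), where 15.4% of all 13160 tested genes did, 7.31% higher and 8.07% lower. At an unadjusted p under 0.05 there were 6 (Ugt1a1, Ugt1a6b, Sult1a1, Sult2a1, Sult2a7 and Sult5a1), beside 33.1% of all tested genes. DESeq2 called 4 of these, Ugt1a6b and Sult1a1 higher and Sult2a1 and Sult2a7 lower, beside 19.4% of all genes. The limma fits of log2(FPKM + 1) and log2(FPKM + 0.1) called 0 members, beside 10.3% of all genes each. RLE factors and a looser filter also called 0 (all genes 14.8% and 11.8%), and the fit with the replicate number as a block called 2, Sult2a1 and Sult5a1, beside 13.0%. The median log2 fold change of tested members was -0.11 for UGT genes, -0.18 for SULT genes and -0.10 for cofactor genes, against -0.02 over all tested genes. In CPM 1 member of 31, Ugt1a6b, had no overlap between groups, beside 39.0% of all tested genes (19.8% higher, 19.2% lower).

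Livers of the same group differed widely. The highest WT liver exceeded the lowest by a median of 1.99 times over the 31 tested members and of 1.35 times over all tested genes. In the group labelled iKO these medians were 1.83 and 1.44 times. Scaling mattered too: on the TPM scale 6 of 31 members lay lower without overlap and 1 higher, beside 25.8% and 6.19% of all tested genes (32.0% in either direction). The 6 were Ugt1a6a, Ugt2b34, Ugt2b35, Ugt3a2, Sult1c2 and Papss1, all of which overlapped in CPM, and the 1 was Ugt1a6b. On log2(FPKM + 1), which like TPM uses no TMM factors, the median over all tested genes was -0.12.

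**Figure D2:**
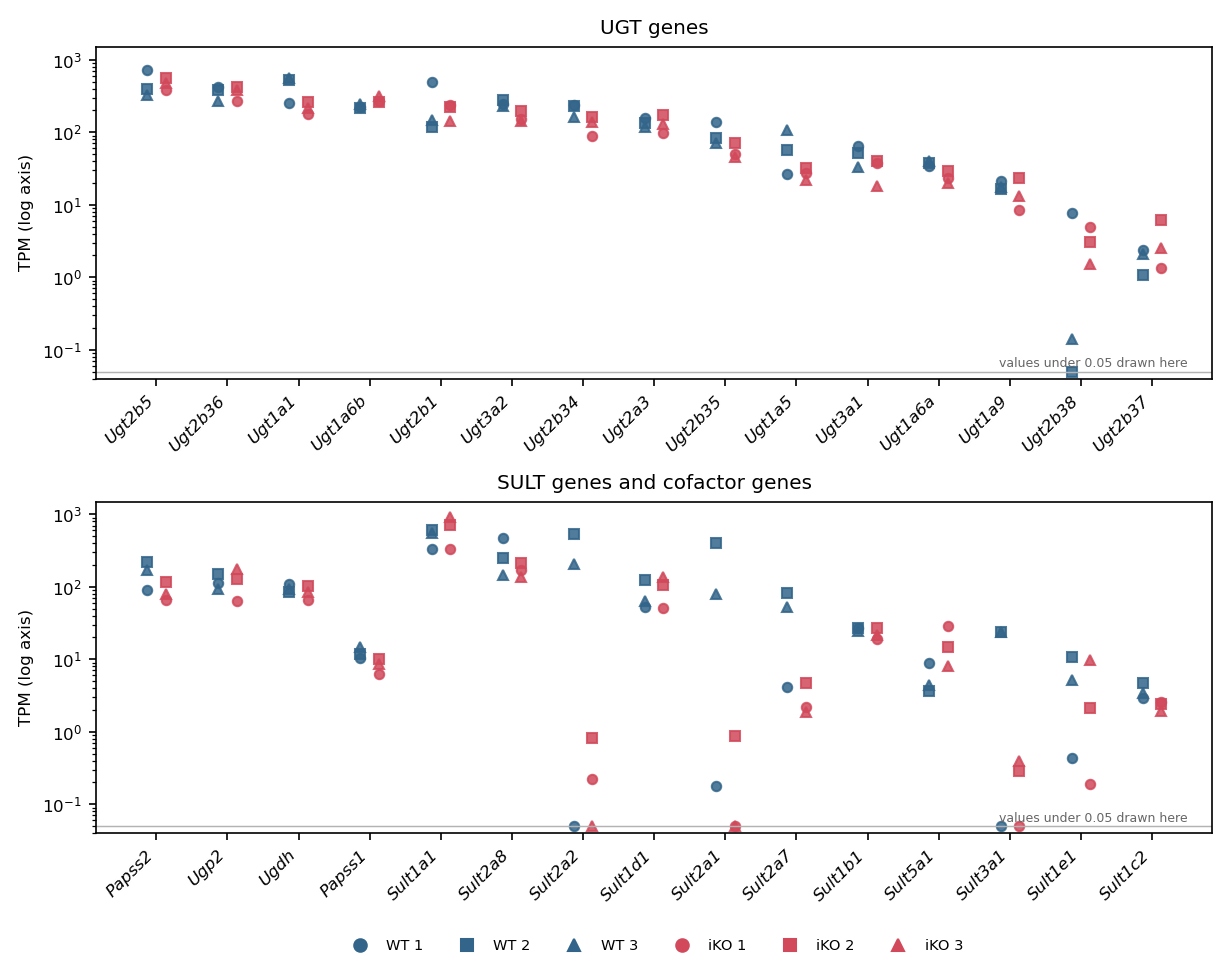
TPM on a log axis for every member with a mean of at least 1 TPM over the 6 livers, UGT genes above, cofactor and SULT genes below. Blue marks are WT, red marks those labelled iKO, circle, square and triangle stand for replicates 1, 2 and 3, and values under 0.05 are drawn at the grey line. Most genes overlap between groups, while Sult2a1, Sult2a2 and Sult3a1 are high in WT 2 and WT 3.

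Within the Ugt1 family, the bilirubin-conjugating Ugt1a1 and the phenol-conjugating Ugt1a6b pointed in opposite directions. Ugt1a1 stood at 493, 770 and 980 CPM in WT 1 to 3 and at 503, 505 and 401 CPM in iKO 1 to 3. Its groups overlapped through WT 1, and 748 ± 244 against 470 ± 59.4 CPM (SD, n = 3 each) gave a log2 fold change of -0.67 (SE 0.27, edgeR adjusted p = 0.121). Ugt1a6b stood at 308, 225 and 297 CPM in WT livers against 531, 357 and 417 CPM in the iKO-labelled livers. All 3 livers labelled iKO lay above all 3 WT livers, at 1.57-fold with a 95% interval of 1.11 to 2.23, and the adjusted p was 0.0762 by edgeR and 0.0232 by DESeq2. The sum of Ugt1a6a and Ugt1a6b was 377, 283 and 368 CPM against 599, 415 and 454 CPM, again without overlap. Both share 50-base words with Ugt1a7c, which stays outside that sum and was estimated at 0.114 to 1.2 CPM. The ratio of Ugt1a6b to Ugt1a1 TPM was 0.885, 0.414 and 0.430 in WT livers and 1.49, 1.00 and 1.47 in the iKO-labelled livers. These ratios, formed after the values were seen and given with no test, did not overlap.

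Other Ugt1 genes showed no such separation in CPM. Ugt1a6a alone stood at 68.7, 58.0 and 70.7 CPM in WT livers against 68.1, 57.5 and 37.3 CPM in the iKO-labelled livers. Ugt1a9, another phenol UGT, stood at 41.3, 24.4 and 30.5 CPM against 23.9, 44.2 and 24.5 CPM. Ugt1a5 ranged from 52.3 to 188 CPM in WT livers and from 40.8 to 76.0 CPM in the iKO-labelled livers. Ugt1a10 and Ugt1a7c did not exceed 1.44 CPM in any liver, and Ugt1a2, at up to 0.315 CPM, was not tested. The whole Ugt1 family summed to 964, 1164 and 1569 CPM in WT livers and to 1203, 1026 and 923 CPM in the iKO-labelled livers, and the groups overlapped.

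**Figure D3:**
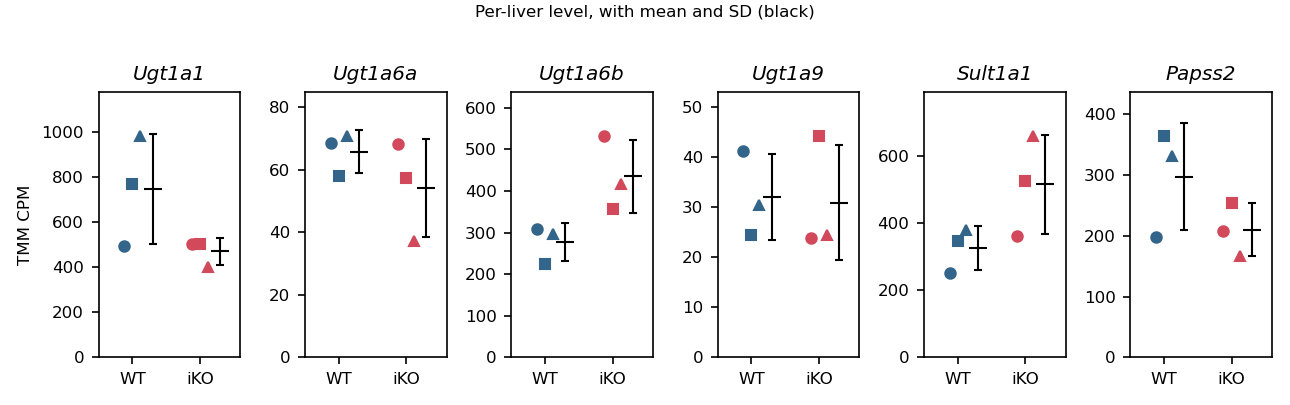
CPM (vertical axes, from 0) of 4 Ugt1a genes, Sult1a1 and Papss2 in each liver, with circle, square and triangle for replicates 1, 2 and 3 and the group mean and SD in black. Of these 6 genes, Ugt1a6b alone has all 3 livers labelled iKO above all 3 WT livers.

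Ugt2 genes, whose enzymes take steroids, fatty acids and many drugs, supplied the largest family share of UGT TPM in every liver. It ran from 46.9% in WT 3 to 71.5% in WT 1. Ugt2b5 had the highest mean of all UGT genes, 477 TPM over the 6 livers, followed by Ugt2b36 at 355 TPM and Ugt1a1 at 332 TPM. Ugt2b5 stood at 833, 336 and 326 CPM in WT livers against 615, 623 and 512 CPM in the iKO-labelled livers, and Ugt2b36 at 473, 324 and 268 CPM against 435, 458 and 412 CPM. In both genes WT 1 was the highest liver and WT 2 and WT 3 were below the other 4. Ugt2b1 followed with 750, 136 and 204 CPM in WT livers against 532, 336 and 209 CPM in the iKO-labelled livers, although iKO 3 lay close to WT 3. Its log2 fold change of -0.02 had a 95% interval of -1.71 to 1.68, which is 0.305- to 3.20-fold.

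The minor gene Ugt2b38 stood at 8.86, 0 and 0.144 CPM in WT livers against 8.02, 3.34 and 1.65 CPM in the iKO-labelled livers. Ugt2b38 shares 34.1% of its 50-base words with Ugt2b5, and in WT 2 its 0 counts allow up to 0.133 CPM (3 counts, counting error only). Ugt2a3 ran from 131 to 201 CPM in WT livers and from 160 to 213 CPM in the iKO-labelled livers. Ugt2b34 ran from 269 to 438 and from 235 to 295 CPM, and Ugt2b35 from 128 to 282 and from 87.1 to 149 CPM, both overlapping. Ugt2b37 ran from 0.908 to 6.86 CPM over all livers, Ugt2a1 reached 1.16 CPM, and Ugt2a2, not tested, reached 1.32 CPM. Ugt3a2 stood at 328, 282 and 271 CPM in WT livers against 285, 254 and 177 CPM in the iKO-labelled livers, and Ugt3a1 ran from 39.2 to 85.9 and from 21.6 to 68.5 CPM. Both overlapped (log2 fold changes -0.30 and -0.33, edgeR adjusted p = 0.374 and 0.646).

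Among SULT genes Sult1a1 was the most abundant at a mean of 571 TPM. It encodes the enzyme that sulfates small phenols, acetaminophen among them. Sult1a1 stood at 251, 345 and 378 CPM in WT livers against 361, 523 and 657 CPM in the iKO-labelled livers, so that iKO 1 lay between WT 2 and WT 3. The 1.58-fold difference had a 95% interval of 1.05 to 2.39 and an adjusted p of 0.117 by edgeR, 0.0394 by DESeq2 and 0.357 by edgeR with a length correction, a fit that called 11.4% of all genes. Without iKO 1 edgeR's adjusted p was 0.046, in a fit that called 10.5% of all genes, and without each of the other 5 libraries it was 0.139 to 0.277. The limma fits gave 0.405 and 0.412. Sult1d1, a sulfotransferase of catechols, showed the same order of iKO livers, at 76.0, 136 and 81.7 CPM in WT livers against 105, 148 and 185 CPM in the iKO-labelled livers (adjusted p = 0.180).

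Sult1b1, which sulfates thyroid hormones, stood between 17.9 and 26.3 CPM in all 6 livers, with a fold of 1.03 and a 95% interval of 0.763 to 1.39. The oestrogen sulfotransferase gene Sult1e1 was low and scattered, at 0.319, 6.17 and 3.48 CPM in WT livers against 0.2, 1.55 and 7.00 CPM in the iKO-labelled livers. Sult1c2 stayed between 1.61 and 3.20 CPM. Sult5a1 stood at 5.95, 1.86 and 2.56 CPM in WT livers against 28.1, 9.81 and 5.08 CPM in the iKO-labelled livers. Its 4.15-fold difference had a 95% interval of 1.13 to 15.2 and did not pass the test (edgeR adjusted p = 0.125), with iKO 3 below WT 1. On the log2 scale the difference was 2.05, and it was 1.12 without iKO 1 and 2.69 without WT 1.

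The Sult2a genes, which encode hydroxysteroid and bile acid sulfotransferases, and Sult3a1 set WT 2 and WT 3 apart from the other 4 livers. Sult2a1 reached 182 CPM in WT 2 and 42.2 CPM in WT 3, against 0.106 CPM in WT 1 and 0, 0.513 and 0 CPM in iKO 1 to 3. Sult2a2 reached 172 CPM in WT 2 and 78.6 CPM in WT 3, with 0 CPM in WT 1 and 0 to 0.345 CPM in the iKO-labelled livers. Sult3a1 gave 10.8 and 13.3 CPM, 0 CPM and 0 to 0.207 CPM in the same order. In all 3 genes WT 1 lay with the livers labelled iKO. Sult2a7 showed it at higher baseline, with 40.4 and 30.7 CPM in WT 2 and WT 3, 2.71 CPM in WT 1 and 1.14 to 2.95 CPM in the iKO-labelled livers. A library at 0 allows up to 0.156 to 0.2 CPM for these genes (3 counts, over WT 1, iKO 1 and iKO 3).

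Sult2a1 and Sult2a7 were tested, and neither passed with all 6 libraries (edgeR adjusted p = 0.128 and 0.0944). Sult2a2 and Sult3a1 did not pass the filter with all 6 libraries and are given as values, with no test in that fit. Without WT 1, edgeR called 5 of 34 fitted members, beside 13.7% of all genes fitted. Sult2a1 and Sult2a7 were lower in the livers labelled iKO (edgeR adjusted p = 0.0119 and 0.000642). Sult2a2 and Sult3a1 were also called lower, but without WT 1 they passed the filter only through WT 2 and WT 3, where they are high. Ugt2b38 was called higher, but without WT 1 it passed the filter only through the livers labelled iKO, where it is high. The WT side then consists of WT 2 and WT 3, which lack Y-linked reads, while all 3 livers labelled iKO have them, so knockout label and Y-linked reads cannot be told apart in that fit. When Y-linked reads entered the model, Sult2a1 had a log2 fold change of 0.79 and Sult2a7 of -0.40 (adjusted p = 0.920 and 0.673). Sult2a8 did not share the pattern: it stood at 610, 241 and 161 CPM in WT livers against 310, 266 and 162 CPM in the iKO-labelled livers, highest in WT 1. Sult2b1, Sult4a1, Sult2a4 and Sult6b1 did not exceed 0.830 CPM in any liver, and Sult6b2 had 0 counts in all 6.

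**Figure D4:**
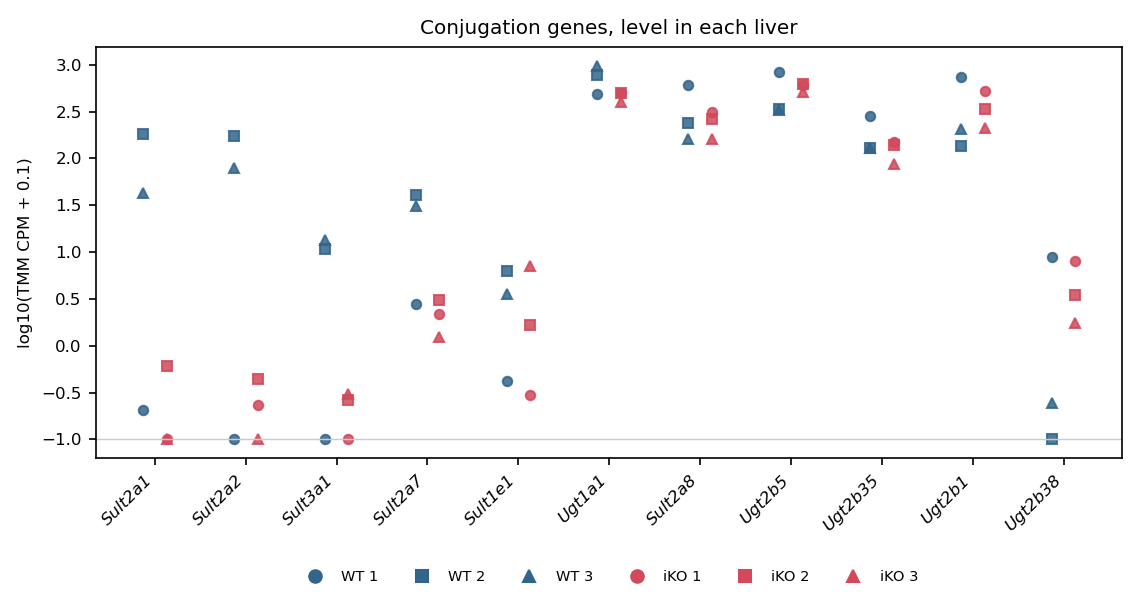
Level of 11 genes in each liver as log10(CPM + 0.1), so that a count of 0 sits at -1. Sult2a1, Sult2a2, Sult3a1 and Sult2a7 are high in WT 2 and WT 3 (blue square and triangle) and low in WT 1 and all livers labelled iKO, while Ugt2b38 is low in WT 2 and WT 3.

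Over all tested members, WT 2 and WT 3 both lay above the other 4 livers in 5 of 31 (Sult2a1, Sult2a7, Ugt1a1, Ugt1a5 and Papss2) and both below them in 8 of 31, where 17.7% and 13.4% of all tested genes did so. The 8 were Ugt1a6b, Ugt2a3, Ugt2b1, Ugt2b5, Ugt2b36, Ugt2b37, Ugt2b38 and Sult5a1, which makes 6 of the 9 tested Ugt2 genes. With a term for Y-linked reads, 0 of 31 members were called by edgeR, beside 1.40% of all tested genes. In that fit 6 of 31 members had an unadjusted p under 0.05, beside 2181 of all 13160 tested genes. Medians under that term were -0.38 for UGT and 0.79 for SULT genes against 0.00 over all tested genes. The SULT median is the value of Sult2a1 itself (SE 3.18), so it does not describe the family. Sult2a1 had 2 expected counts in WT 1 and 0, 9.56 and 0 in iKO 1 to 3. The fit with that term rests on WT 1 as the WT liver with Y-linked reads. In it Ugt1a1 moved from -0.67 to -0.07 on the log2 scale, Ugt1a6b from 0.65 to 0.50 (SE 0.35, adjusted p = 0.489) and Sult1a1 from 0.66 to 1.04 (adjusted p = 0.245).

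**Figure D5:**
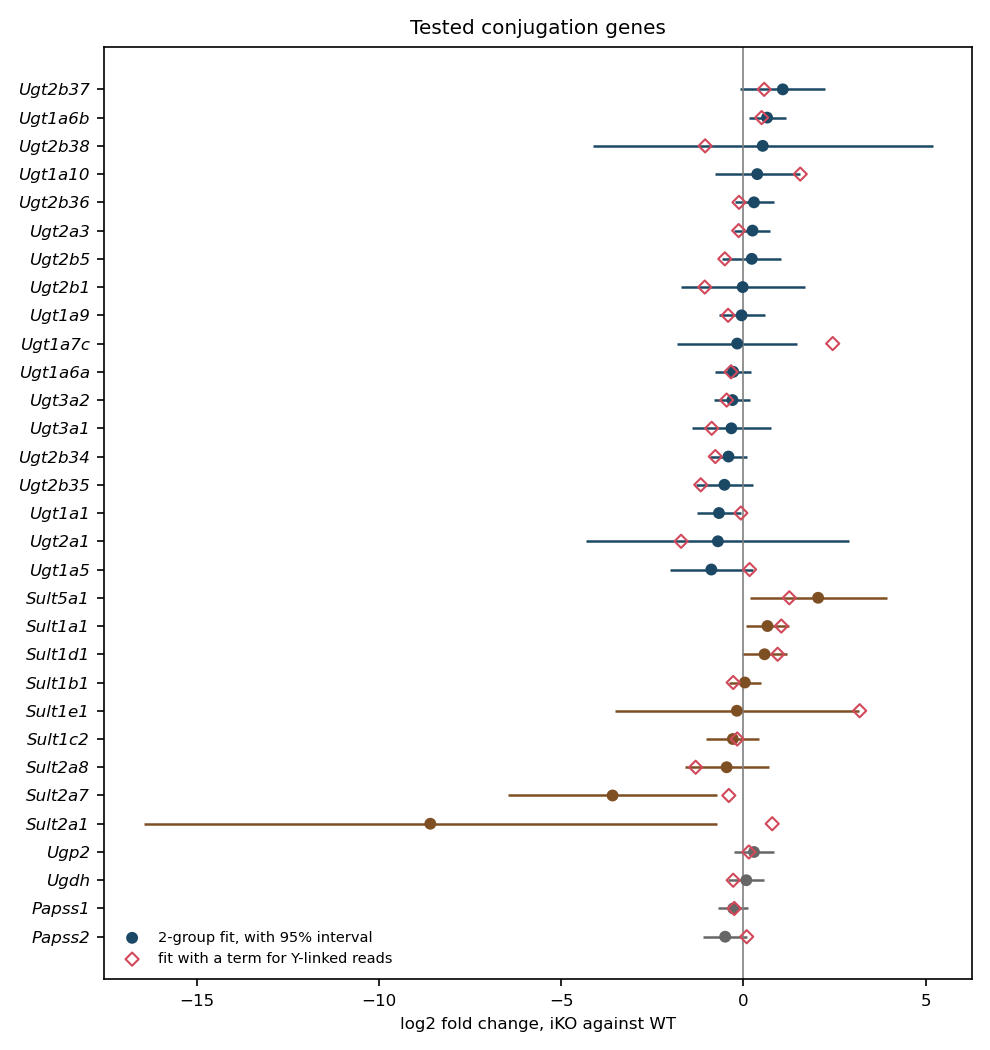
Log2 fold change of livers labelled iKO against WT for the 31 tested members (dots with 95% intervals; UGT blue, SULT brown, cofactor genes grey) and the same from the fit with a term for Y-linked reads (open diamonds). Sult2a1 lies at -8.59 in the first fit and at 0.79 in the other, and 25 of 31 intervals include 0.

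The cofactor genes showed small differences. Ugdh stood at 156, 91.5 and 117 CPM in WT livers against 134, 141 and 112 CPM in the iKO-labelled livers (1.06-fold, 95% interval 0.751 to 1.49). Ugp2 stood at 192, 190 and 141 CPM against 152, 210 and 278 CPM (1.23-fold, 0.835 to 1.80). Papss2 is the main PAPS synthase gene of liver, and its mean of 123 TPM here exceeded the 10.3 TPM of Papss1. Papss2 stood at 197, 363 and 330 CPM in WT livers against 208, 254 and 167 CPM in the iKO-labelled livers (0.707-fold, 0.468 to 1.07), and WT 1 was the liver that overlapped. Papss1 ran from 14.2 to 20.6 CPM in WT livers and from 12.8 to 15.6 CPM in the iKO-labelled livers.

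Among 9 tested genes that act around glucuronidation, 1 rose and 0 fell, where 15.4% of all tested genes were called. Of these 9, 3 had an unadjusted p under 0.05, beside 33.1% of all tested genes. Slc35d2 and Slc35b4, named after their values were seen, lay lower without overlap in CPM, as did 19.2% of all tested genes. Neither passed (log2 fold changes -0.56 and -0.44, edgeR adjusted p = 0.0729 each). Among 9 around sulfation 0 were called by edgeR (0 at an unadjusted p under 0.05), DESeq2 or limma. The riser was Nudt14, which encodes a UDP-glucose pyrophosphatase, from 43.2, 31.3 and 37.3 CPM to 117, 61.1 and 68.6 CPM (log2 fold change 1.14, SE 0.26, edgeR adjusted p = 0.0200). Of 14 transcription factors that act on these genes, 2 rose and 2 fell, beside 7.31% higher and 8.07% lower among all tested genes. Nr1i2, which encodes the drug sensor PXR, went from 51.1, 59.4 and 54.7 CPM to 88.6, 90.6 and 88.7 CPM (0.70, SE 0.15, adjusted p = 0.0171). Its deposited TPM values overlapped, at 37.4, 57.6 and 45.8 against 42.7, 65.4 and 64.2, and the limma fits did not call it (0.41 and 0.42, adjusted p = 0.155 each). Hnf4a rose by 0.79 on the log2 scale (adjusted p = 0.0414), a call that ended whichever library was left out (adjusted p up to 0.148, without WT 2) and with the replicate block (adjusted p = 0.0792). Stat5b went from 85.7, 83.0 and 84.3 CPM to 60.6, 47.8 and 39.8 CPM (-0.77, adjusted p = 0.0241), and Stat5a fell by 0.66 on that scale (adjusted p = 0.0258). The Stat5b call ended with a length correction (-0.53, adjusted p = 0.115) and the Stat5a call in the limma fits (adjusted p = 0.0603 and 0.0619). STAT5B relays growth hormone, whose secretion pattern sets much of the sex difference in liver genes.

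Of 4 exporters of conjugates 1 fell and 0 rose, beside 8.07% lower and 7.31% higher among all tested genes. Abcc2, the canalicular exporter of glucuronides, went from 335, 345 and 304 CPM to 169, 248 and 195 CPM (log2 fold change -0.69, edgeR adjusted p = 0.0493). The Abcc2 call also ended with RLE factors (0.0577), without the filter (0.0534), with the replicate block (0.0658) and with a length correction (log2 fold change -0.46, adjusted p = 0.097), where each value in brackets is an adjusted p. All 6 of these calls ended without WT 2 (adjusted p from 0.0676 to 0.195), and with the Y-linked term none of the 6 was called, though each kept its direction, with log2 fold changes of 0.93 for Nudt14, 0.81 for Nr1i2, 0.96 for Hnf4a, -0.64 for Stat5a, -0.79 for Stat5b and -0.72 for Abcc2. Without WT 3 the calls of Nudt14, Nr1i2, Hnf4a, Stat5b and Abcc2 ended, without iKO 3 those of Hnf4a, Stat5a, Stat5b and Abcc2, without iKO 1 those of Hnf4a, Stat5a and Abcc2, without iKO 2 those of Hnf4a and Stat5b, and without WT 1 those of Hnf4a and Abcc2. The constitutive androstane receptor gene Nr1i3 and Ahr, both activators of Ugt1a genes, were not called (log2 fold changes -0.14 and 0.23).

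Since each liver was measured in bulk, fewer cells of a type and less RNA per cell cannot be told apart. As background for the calls in each marker list, 7.31% of all tested genes were called higher and 8.07% lower. Summed over 10 hepatocyte markers, WT livers held 113688 to 126083 CPM and those labelled iKO 116857 to 137387 CPM, with Tat and Hnf4a called higher and all 10 detected. That sum rested largely on Alb, at 66386 to 91157 CPM. Of the 10, 4 lay higher and 1 lower without overlap in CPM, beside 19.8% and 19.2% of all tested genes. Sums over 8 stellate cell markers ran from 298 to 498 CPM in WT livers against 138 to 176 CPM in the iKO-labelled livers, with 6 of 8 called lower. Macrophage markers (4 of 6 called lower) ran from 133 to 226 and from 76.9 to 110 CPM, and endothelial markers (3 of 6) from 118 to 191 and from 47.3 to 97.8 CPM. For these cell types WT 1 was the lowest WT liver. Cholangiocyte markers (0 of 5 called) ran from 119 to 202 and from 72.7 to 411 CPM, and neutrophil markers (3 of 5 called lower) from 24.1 to 112 and from 9.97 to 30.9 CPM. Intestinal markers ran from 29.3 to 39.0 and from 11.6 to 17.8 CPM (Lgr5 and Fabp2 called lower). That sum rested on Fabp2, at up to 32.4 CPM, and Lgr5, at up to 12.7 CPM. Vil1 did not exceed 1.40 CPM and Muc2 0.193 CPM in any liver, and the presence of intestinal tissue was not tested. The 3 kidney tubule markers summed to at most 3.30 CPM and the 2 olfactory markers to at most 1.82 CPM, and no list was at 0 throughout. Among the calls in the lists of non-hepatocyte markers, those of Lrat, Reln, Ngfr, Dcn, Pdgfrb, Adgre1 and Mpo held whichever library was left out. The others ended without WT 2, except that of Ltf, which ended without each of iKO 1 to 3. With the Y-linked term 3 stellate, 1 neutrophil and 1 intestinal marker were called, beside 1.40% of all tested genes. Macrophage and endothelial markers had 0 calls each with that term (2 and 1 at an unadjusted p under 0.05, beside 2181 of all 13160 tested genes). The part of any of these cell types in the values of conjugation genes was not tested.

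Promoter sequence was matched by symbol for 34 of the 40 members (40 windows of 250 bases before to 50 after the start site; RefSeq, GRCm38.p6). The parts before the start site are shown for 3 genes on which the per-liver values turn: Sult3a1, high in WT 2 and WT 3, Ugt2b1, highest in WT 1, and Ugt1a1, whose own first-exon promoter distinguishes it from the rest of its locus. Capitals mark a STAT motif in Sult3a1, a D-box in Ugt2b1 and an HNF1-type motif in Ugt1a1, the last pair matching on the opposite strand to that printed.
Sult3a1, chr10:33857472-33857721, plus strand: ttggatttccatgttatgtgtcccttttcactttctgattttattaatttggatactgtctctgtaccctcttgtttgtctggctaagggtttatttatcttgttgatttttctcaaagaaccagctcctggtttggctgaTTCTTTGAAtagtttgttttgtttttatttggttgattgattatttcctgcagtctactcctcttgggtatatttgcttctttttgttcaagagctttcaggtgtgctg
Ugt2b1, chr5:86926504-86926753, minus strand: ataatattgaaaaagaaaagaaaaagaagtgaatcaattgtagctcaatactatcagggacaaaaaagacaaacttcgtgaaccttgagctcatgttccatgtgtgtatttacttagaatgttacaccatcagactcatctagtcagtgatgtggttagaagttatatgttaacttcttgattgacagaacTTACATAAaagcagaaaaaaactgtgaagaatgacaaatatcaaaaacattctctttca
Ugt1a1, chr1:88211709-88211958, plus strand: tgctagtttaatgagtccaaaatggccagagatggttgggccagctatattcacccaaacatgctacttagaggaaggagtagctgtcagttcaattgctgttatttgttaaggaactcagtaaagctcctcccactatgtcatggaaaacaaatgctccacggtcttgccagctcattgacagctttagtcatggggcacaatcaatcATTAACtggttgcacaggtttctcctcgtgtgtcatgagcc
Motifs were chosen after the values were seen and searched on both strands. The STAT letters TTCNNNGAA occurred in the windows of Sult3a1 and Ugt1a6a, 5.00% of member windows against 8.30% of all 32851. The HNF1-type letters GTTAAT, named for a hepatocyte transcription factor, occurred in 9 member windows, 22.5% against 7.10%, among them Ugt1a1, Ugt1a6a, Ugt1a9, Ugt2a3, Sult1a1 and Sult1d1. The D-box TTATGTAA, the letters bound by the clock-controlled DBP family, occurred in Ugt2b1 alone, 2.50% against 0.938%. The core of the xenobiotic response element, GCGTG, occurred in 9 windows, 22.5% against 32.4%, and the E-box CACGTG in 0 against 7.15%. A match describes letters in these windows and no binding was measured.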

How the data were processed

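RNA from 6 mouse livers was sequenced. The table the authors deposited gives expected counts, FPKM and TPM per gene, per the file headers. HISAT2 2.0.4, Bowtie2 2.2.5, RSEM 1.2.12 and build mm9 are listed, without roles, per the submitters' processing notes. TMM-normalised CPM values were computed here from the expected counts. Read length and strand are not given in the sources used here.

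Expected counts were rounded and tested with edgeR 4.0.16 (TMM factors, filterByExpr, robust quasi-likelihood, both groups, no covariate, Benjamini-Hochberg over 13160 genes). DESeq2 1.42.0, limma 3.58.1 on log2(FPKM + 1) and log2(FPKM + 0.1), other factors, no filter, a transcript length correction, a term for Y-linked reads, a replicate block and leaving out each library were alternatives. Scripts were tested on simulated data. Totals were 18139507 to 19911983, and with TMM factors of 0.78 to 1.18, 3 counts equal 0.133 to 0.2 CPM. Intervals cover 95%.

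All 40 members are reported, with the side lists and the marker lists. Members and lists were chosen with earlier results of these data known. Nothing states separate animals for the replicates, so p-values measure only the spread between these samples.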

Additional observations from a re-analysis of the deposited data

How the results depend on the processing

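Of all tested genes 2024 passed the test, against 184 once Y-linked reads entered the model, 143 in the libraries with Y-linked reads alone and 177 with that term and a length correction, and 491 to 1840 when 1 library was left out. Counts of called UGT genes were 0 to 1 and of SULT genes 0 to 4 when 1 library was left out. The 4 came without WT 1, in a fit that called 13.7% of all genes. Among them were Sult2a2 and Sult3a1, which did not pass the filter with all 6 libraries. Without WT 1 both passed it only through WT 2 and WT 3, where they are high, so their calls are not read as a result. The 1 UGT gene called was Ugt2b38, also without WT 1. It passed the filter there only through the livers labelled iKO, where it is high, so its call is not read as a result either. DESeq2 called 1 UGT and 3 SULT genes, beside 19.4% of all genes. The replicate block called 2 SULT genes (Sult2a1 and Sult5a1), beside 13.0%. Called cofactor genes were 0 in every alternative run. The log2 of UGT over SULT differed by 0.17, by -0.57 in the libraries with Y-linked reads alone, and by -0.19 to 0.55 when 1 library was left out. Deviations of same-numbered libraries correlated at 0.207, 0.218 and 0.0458, so the numbers were not taken as pairs, and the replicate block moved the count of all called genes to 1710.

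With Y-linked reads as a term, in the libraries with such reads alone, and with the term and a length correction together, the log2 fold change changed sign for Sult1b1 (-0.28, -0.27 and -0.49), Sult1e1 (3.19, 3.18 and 2.95), Ugt1a5 (0.17, 0.18 and 0.25), Ugt1a7c (2.45, 2.43 and 2.52), Ugt2a3 (-0.13, -0.12 and -0.22), Ugt2b36 (-0.12, -0.11 and -0.26), Ugt2b38 (-1.05, -1.03 and -1.21), Ugt2b5 (-0.51, -0.51 and -0.65), Papss2 (0.09, 0.10 and 0.21) and Ugdh (-0.28, -0.27 and -0.33). Sult2a1 changed sign with the term (0.79) and with term and length (0.46), and Ugt1a1 with the latter (0.01). Length correction alone gave Sult1b1 -0.17 and Ugt1a9 0.02. Both FPKM scales gave Sult1b1 -0.09, Ugdh -0.07 and Ugt2b1 0.09. Ugt2b1 was 0.01 with RLE factors and DESeq2 and 0.27 with the replicate block. Leaving out 1 library gave ranges across 0 for Sult1b1 (-0.04 to 0.23), Sult1e1 (-1.86 to 0.66), Sult2a8 (-0.79 to 0.29), Ugt1a7c (-0.65 to 0.52), Ugt1a9 (-0.38 to 0.17), Ugt2a1 (-6.49 to 0.25), Ugt2b1 (-0.41 to 1.08), Ugt2b38 (-0.25 to 5.82), Ugt2b5 (-0.00 to 0.82), Ugt3a1 (-0.70 to 0.04) and Ugdh (-0.06 to 0.30). The cause of these changes was not tested. Depth limits genes under about 1 CPM, and 3 livers a group limit all tests.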
